A study of Mus musculus with 1790 samples.

Results

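The 8 neuropeptide precursor genes Npy, Vip, Cck, Crh, Tac2, Penk, Sst and Pnoc were followed through 7 tables of mouse interneuron (IN) and embryonic forebrain RNA, which together hold 49915 gene rows. The genes were listed by name as neuropeptides of cortical INs. All 8 had a row at P15, in the patched cells, in the E14.5 tdTOM+/GFP+ cells and in the droplets of the preoptic area (POA). Sst had no row at P30, Vip had none in the droplets of the caudal ganglionic eminence (CGE), and only Npy, Penk, Sst and Pnoc had one in the FlashTag+ table.

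The postnatal cells came from somatosensory cortex of Htr3a-GFP mice that also carried Hmx3-Cre and a Cre-dependent R26tdTOM allele. GFP marks Htr3a-expressing INs, the class that contains Vip, Sncg and Lamp5 cells and neurogliaform cells (NGCs). The tdTOM label marks cells in which Hmx3-Cre had acted in the embryo. The paper describes Hmx3 as a gene that POA-born NGCs express after their last division. GFP+ cells with tdTOM (196 at P15, 301 at P30) and without it (194 and 280) were sorted and captured one by one, and 47 Htr3a-GFP+/Hmx3-Cre;R26tdTOM+ cells were drawn into a recording pipette at P14 to P25. According to the paper, the sorted cells came from microdissected upper layers and the patched cells from all cortical layers. The authors gave each sorted cell a subtype or the word inconclusive by mapping its transcriptome onto adult INs. The labelled NGCs were of the subtypes Lamp5 Plch2 Dock5 (Dock5+NGCs) and Lamp5 Lsp1 (Lsp1+NGCs). According to the paper, patched cells were labelled by a classifier trained on sorted and adult cells of these subtypes. At E14.5 the tables held 418 tdTOM+/GFP+ POA cells of the same alleles, 352 FlashTag+ wild-type POA cells (labelled with a dye that enters cells dividing at the ventricle), 2106 wild-type POA droplet cells and 4115 wild-type CGE droplet cells. Because the subtype labels were made from the same transcriptomes, differences between labelled subtypes are descriptions of the labels' cells, above all for Vip in cells labelled Vip. No label named the animal of a cell, so each sort, age and subtype counted as 1 sample and nothing was tested across animals.

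Neuropeptides are cut from precursor proteins inside dense core vesicles and are released with, and act more slowly than, the transmitter GABA. Each binds its own G protein-coupled receptors on neighbouring cells. In cortex the precursors are carried by different IN classes, which is why they serve as class labels: Npy for NGCs, Vip for INs that inhibit other INs, Sst for INs that target dendrites, and Cck for large basket cells.

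The genes lie on 7 chromosomes (GRCm38, GENCODE M21). Npy is at chr6:49822710-49829507 on the plus strand, Vip at chr10:5639218-5647617 on the plus strand and Tac2 at chr10:127724478-127731768 on the plus strand. On the minus strand are Cck at chr9:121489824-121495694, Crh at chr3:19693401-19695396, Penk at chr4:4133531-4138819, Sst at chr16:23889573-23890958 and Pnoc at chr14:65400673-65425472. RefSeq (GRCm38.p6) start-site windows were at hand for 5 of the 8 genes (not Crh, Penk and Pnoc). They are shown because several neuropeptide genes are textbook targets of CREB, the factor of the cyclic AMP response element, and capitals mark TGACG or its reverse complement CGTCA. The stretches are the 100 bases before the start site at chr6:49822610-49822709 (Npy, plus strand), chr10:5639118-5639217 (Vip, plus strand), chr9:121495695-121495794 (Cck, minus strand) and chr10:127724378-127724477 (Tac2, plus strand), and 30 bases at chr16:23890874-23890903 (Sst, minus strand), which lie upstream of the RefSeq start but inside the longer GENCODE gene.
Npy: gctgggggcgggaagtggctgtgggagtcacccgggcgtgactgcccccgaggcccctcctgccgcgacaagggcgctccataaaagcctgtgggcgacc
Vip: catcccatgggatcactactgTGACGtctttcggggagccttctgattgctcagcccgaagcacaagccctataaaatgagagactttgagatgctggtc
Cck: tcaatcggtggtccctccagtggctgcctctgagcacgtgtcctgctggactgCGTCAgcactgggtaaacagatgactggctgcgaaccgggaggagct
Tac2: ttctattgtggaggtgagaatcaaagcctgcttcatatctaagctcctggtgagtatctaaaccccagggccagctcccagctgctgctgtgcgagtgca
Sst: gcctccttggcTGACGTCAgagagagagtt
Sst held the whole palindrome, in which both searched words overlap, Vip and Cck held 1 match each, and Npy and Tac2 held none in this window. TGACG or CGTCA on either strand occurred within 100 bases before the start in 10.5% of 32851 mouse entries, and the palindrome TGACGTCA in 1.15%. A match is a description of the letters only.

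Levels are given as CPM, counts of a gene scaled to a common total for each group of cells, with exact Poisson 95% intervals, and shares of cells with exact binomial 95% intervals. Both cover counting error only, not differences between animals, and they are narrow because single cells were sequenced deeply. The median cell held 250506 counts at P15, 213229 at P30, 511936 when patched, 356990 and 283979 among tdTOM+/GFP+ and FlashTag+ cells, and 7574 and 5710 in POA and CGE droplets. A gene was called present in a deeply sequenced cell at 100 CPM or more, and a difference was counted as past 2-fold where the log2 fold, after adding 10 CPM to both sides, was 1 or more in size and the higher group reached 10 CPM. Sorted NGCs at P15 looked like GABAergic neurons. They held 5087 (Dock5) and 5099 (Lsp1) CPM of GABAergic neuron markers. Glutamatergic, astrocyte, oligodendrocyte and medial ganglionic eminence (MGE) IN markers reached at most 42.6 CPM each. Patched cells held more counts of markers of other cells. Oligodendrocyte markers summed to 1205 CPM in patched Dock5+NGCs and 5849 CPM in patched Lsp1+NGCs, MGE markers to 43.8 and 189 CPM, and glutamatergic markers to 25.2 and 269 CPM, with all 3 oligodendrocyte genes detected in both. The higher Lsp1 sums came from some of the cells. At P14 to P18 the median Lsp1 cell held no more than the median Dock5 cell (oligodendrocyte markers 805 against 907 CPM, MGE 9.64 against 25.5 CPM, glutamatergic 8.08 against 16.2 CPM). In the 4 Lsp1 and 6 Dock5 cells patched at P19 to P25 the medians were 308 against 459 CPM for oligodendrocyte markers. They were 6.07 against 0 CPM for MGE and 5.91 against 0 CPM for glutamatergic markers.

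Npy, whose peptide acts on inhibitory Y receptors, was high in Lsp1+NGCs at both ages. Every sorted cell at either age had an Npy count, non-NGCs included, so a count alone does not mark a cell that makes Npy. In tdTOM+ Lsp1+NGCs the lowest, median and highest cell were 1060, 9018 and 18598 CPM at P15, and in Dock5+NGCs 66.8, 2843 and 16840 CPM. At P30 the corresponding values were 633, 6340 and 19603 CPM in Lsp1+NGCs and 248, 1879 and 4754 CPM in Dock5+NGCs. The ranges of the cells overlapped at both ages, although no Dock5+NGC at P30 reached the median Lsp1+NGC. The summed level in Dock5+NGCs at P15, 4193 CPM (4154 to 4232), stood against 10384 CPM for the Lsp1 subtype (log2 fold -1.31). For P30 the sums were 2194 CPM (2173 to 2215) in the Dock5 and 7748 CPM (7693 to 7804) in the Lsp1 subtype (log2 fold -1.82).

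The patched cells, which were never dissociated or sorted, showed the same order for Npy. The medians were 2458 CPM in 20 Dock5+NGCs (524 to 13948) and 10827 CPM in 27 Lsp1+NGCs (316 to 34896). The labels of patched cells came from a classifier trained on sorted and adult NGCs, in which the paper reports that Npy differed. The shared order is therefore not independent of the sorted cells. The lowest Lsp1 value belonged to 1 cell with 15968484 counts, far more than any other. The summed log2 fold was -1.11, and -1.61 without that cell. Restricted to cells patched at P15 to P18, the log2 fold was -0.72, under 2-fold. This range still included that cell, which was patched at P15, and its fold without that cell was not computed.

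**Figure D1:**
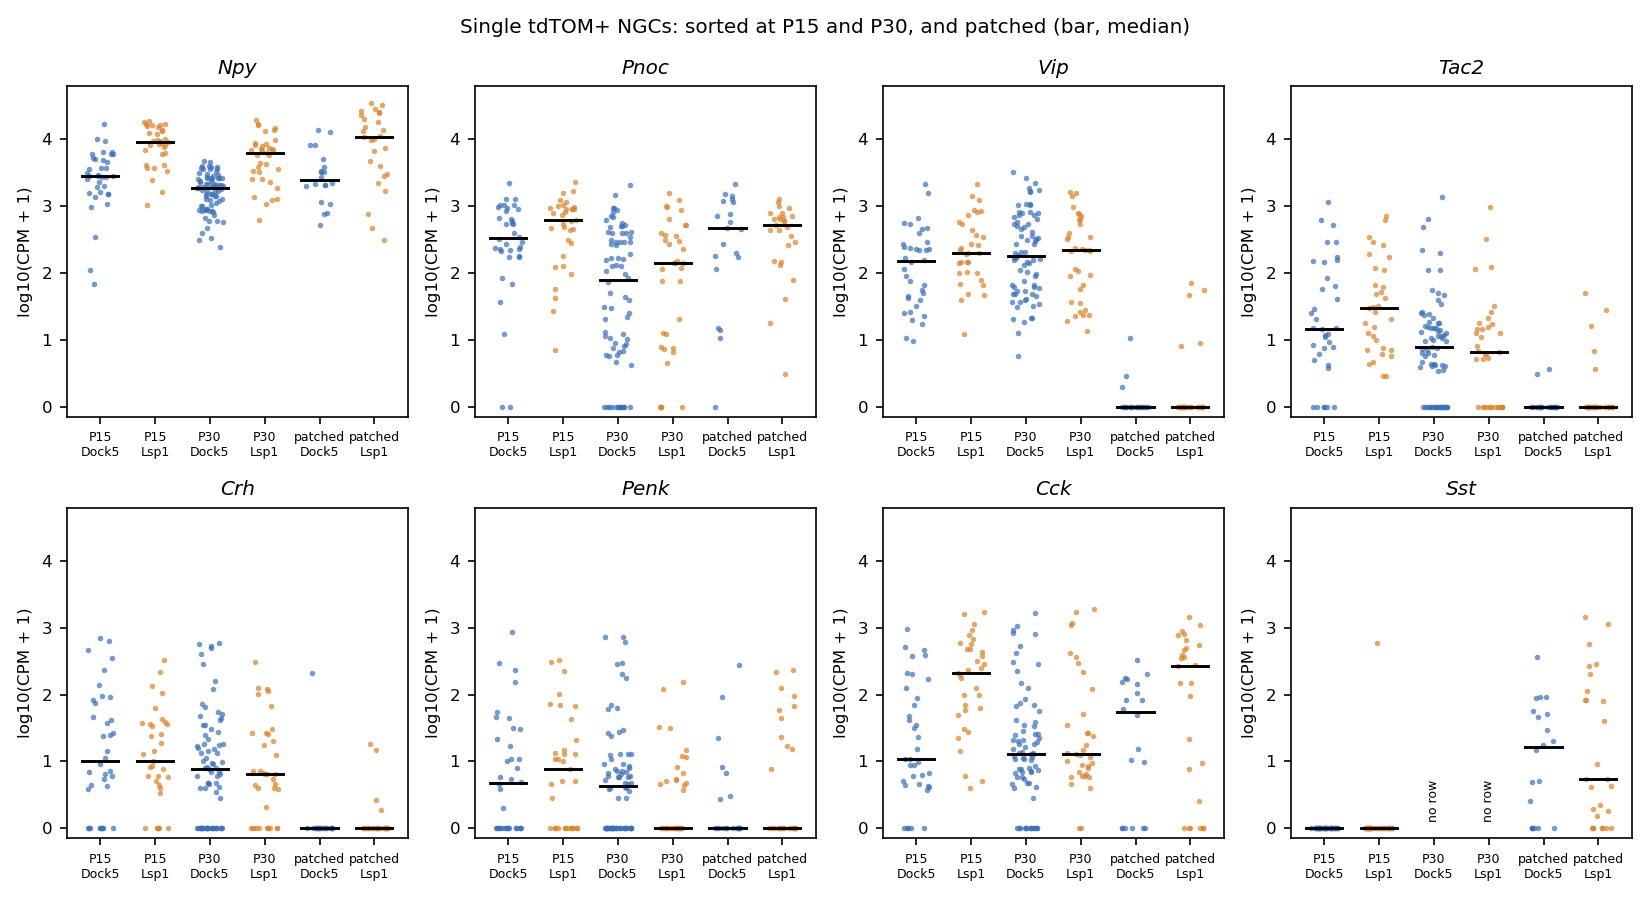
Neuropeptide levels in single tdTOM+ NGCs, as log10(CPM + 1), for Dock5+NGCs and Lsp1+NGCs sorted at P15 or P30 or collected by patch-seq; each point is a cell and each bar a median, and Sst has no row at P30. Npy medians lie higher in Lsp1+NGCs than in Dock5+NGCs in all 3 collections (9018 against 2843, 6340 against 1879 and 10827 against 2458 CPM), and Vip, at 100 CPM or more in most sorted NGCs, is at or near 0 in patched ones.

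Among the labelled subtypes with 5 or more cells (12 at P15 and 16 at P30, both sorts pooled), Lsp1+NGCs held the most Npy at both ages, 10304 and 8076 CPM. The quartiles of their cells did not overlap those of the next subtype in either table. No Sncg or Serpinf1 subtype reached 5 cells at P15, so every P15 order holds only Lamp5 and Vip subtypes. Dock5+NGCs came second at P15 with 3988 CPM but sixth at P30 with 2194 CPM, where they overlapped their neighbours in the order, among them Lamp5 Ntn1 Npy2r (2381 CPM) and Vip Pygm C1ql1 (2258 CPM). The 2 tables hold different gene rows (11979 of 17465 are shared), so their values are set side by side and not compared. Outside the Lamp5 class Npy was highest in Vip Pygm C1ql1 cells at P15 (2003 CPM) and in Sncg Vip Itih5 cells at P30 (3638 CPM). It was lowest in Lamp5 Fam19a1 Pax6 cells at P15 (248 CPM) and Sncg Gpr50 cells at P30 (337 CPM).

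Lsp1-labelled cells occurred in both sorts, so the fate-mapped and the unmarked cells of 1 subtype could be compared. Npy was 10384 CPM in tdTOM+ and 10156 CPM in tdTOM- Lsp1 cells at P15, and 7748 and 8526 CPM at P30. At P15 3 of the 8 precursors were past 2-fold between these sorts, where 23.7% of all genes tested were. They were Crh (31.2 against 111 CPM), Penk (33.7 against 81.1 CPM) and Sst, whose 97 counts all came from 1 tdTOM+ cell. Penk had a log2 fold of -1.06, but -0.48 without the richest cell of each sort and 0.11 in plate rows 21 to 40. At P30 none of 7 was past 2-fold against 30.4% of all genes, with log2 folds from -0.59 for Cck to 0.40 for Penk.

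Pnoc, the precursor of nociceptin, accompanied Npy in NGCs. In tdTOM+ NGCs at P15 the median cell held 336 CPM of Pnoc (Dock5) or 617 CPM (Lsp1), and 30 of 36 and 28 of 33 cells reached 100 CPM. At P30 the medians were 78.3 and 140 CPM and 36 of 76 and 21 of 35 cells reached it. In patched cells the medians were 466 and 528 CPM, with 16 of 20 and 23 of 27 cells present. Between the 2 NGC subtypes Pnoc stayed within 2-fold in every collection, with log2 folds of -0.22, -0.49 and 0.36. Over the subtypes Lsp1+NGCs (654 CPM), Vip Crispld2 Kcne4 (648 CPM), Dock5+NGCs (616 CPM) and Vip Crispld2 Htr2c cells (609 CPM) were nearly level at P15, and their quartiles overlapped. At P30 Vip Crispld2 Kcne4 cells led with 646 CPM, and the lowest were Vip Igfbp6 Pltp cells with 7.01 CPM.

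**Figure D2:**
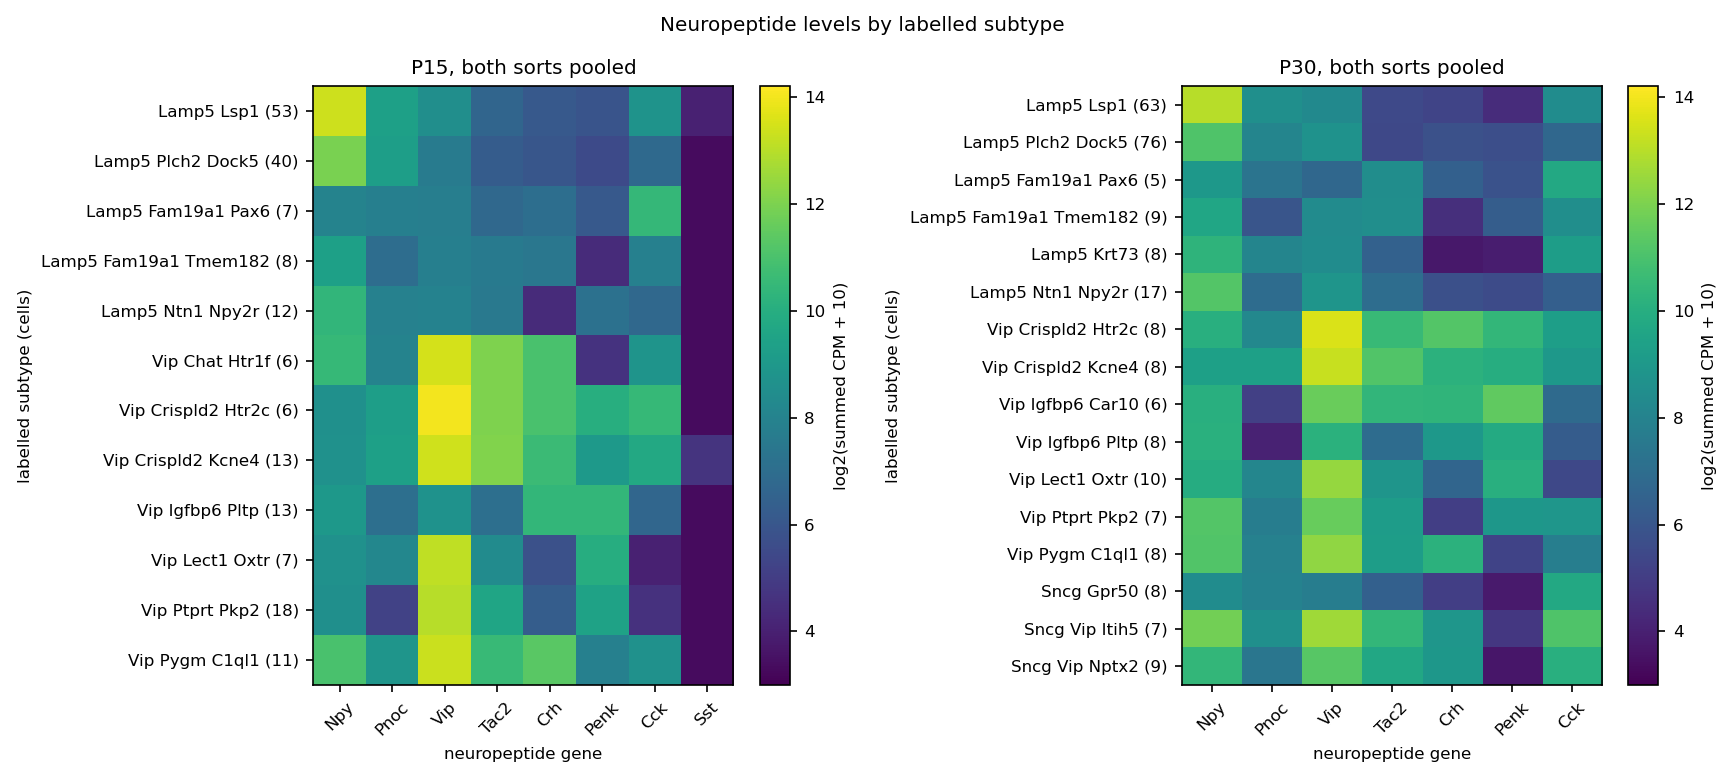
Heat map of log2(summed CPM + 10) for each neuropeptide gene (columns) in each labelled subtype with at least 5 cells (rows), both sorts pooled, at P15 and P30. The Npy column peaks in Lamp5 Lsp1 cells (10304 and 8076 CPM), while Vip, Crh, Tac2 and Penk fill different subsets of the Vip rows.

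Within the cells labelled Vip the other precursors were spread unequally over the subtypes. Vip itself, which acts through receptors that raise cyclic AMP, ran from 16458 CPM in Vip Crispld2 Htr2c cells at P15 down to 8058 CPM in Vip Ptprt Pkp2 cells. The seventh subtype, Vip Igfbp6 Pltp, held only 412 CPM, its quartiles apart from those of Ptprt Pkp2 and overlapping those of Lsp1+NGCs (365 CPM). At P30 the same subtype held 1126 CPM against 12059 CPM in Crispld2 Htr2c. The 13 Igfbp6 Pltp cells at P15 were nonetheless rich in 2 other precursors, with 1376 CPM of Penk and 1351 CPM of Crh.

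Crh encodes corticotropin-releasing hormone, the peptide that starts the pituitary stress response and is also released by cortical INs. At P15 it was high in 5 Vip subtypes, Pygm C1ql1 (2575 CPM), Chat Htr1f (2034 CPM), Crispld2 Htr2c (2011 CPM), Crispld2 Kcne4 (1576 CPM) and Igfbp6 Pltp (1351 CPM). All other subtypes held 162 CPM or less, with a gap between the quartiles, and these included the Vip subtypes Ptprt Pkp2 (68.8 CPM) and Lect1 Oxtr (44.9 CPM). At P30 Crispld2 Htr2c cells led with 2328 CPM, and Ptprt Pkp2 (24.2 CPM) and Lect1 Oxtr (92.0 CPM) were again low.

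Tac2, the precursor of neurokinin B, was carried at P15 by Crispld2 Kcne4 (4280 CPM), Crispld2 Htr2c (4152 CPM) and Chat Htr1f cells (4150 CPM), which did not differ beyond the spread of their cells. Pygm C1ql1 cells followed with 1488 CPM. In Igfbp6 Pltp cells Tac2 was 128 CPM, while both NGC subtypes closed the order with 89.8 (Lsp1) and 67.6 CPM (Dock5). At P30 Crispld2 Kcne4 cells again held the most, 2305 CPM, and Dock5+NGCs the least, 33.4 CPM. The Sncg Vip Itih5 cells, a Vip- and Cck-bearing subtype, followed the Crispld2 subtypes with 1358 CPM.

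Penk, the enkephalin precursor, had another distribution. At P15 it was highest in Igfbp6 Pltp (1376 CPM), Crispld2 Htr2c (1034 CPM) and Lect1 Oxtr cells (1003 CPM). Their quartiles lay above those of the next subtype, Ptprt Pkp2 (688 CPM). The subtype after that, Crispld2 Kcne4 (511 CPM), had an upper quartile of 731 CPM, which overlapped Crispld2 Htr2c (lower quartile 654 CPM). Chat Htr1f cells, among the richest in Tac2 and Crh, held 14.7 CPM of Penk. At P30 the largest sum, 2856 CPM in Igfbp6 Car10 cells, came from a few of 6 cells, since the median cell held 85.4 CPM. Likewise the 1062 CPM of Lect1 Oxtr cells at P30 went with a median of 11.1 CPM. The quartiles of Ptprt Pkp2 cells (484 CPM), sixth in the order, lay above those of the following subtype, Lamp5 Fam19a1 Tmem182 (68.1 CPM).

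Cck, the cholecystokinin precursor, crossed the classes. At P15 Crispld2 Htr2c cells held 1424 CPM, with a median of only 293 CPM, and Lamp5 Fam19a1 Pax6 cells 1387 CPM with a median of 1290 CPM. Sncg subtypes were ranked only at P30, where Sncg Vip Itih5 (2217 CPM) and Sncg Vip Nptx2 (1058 CPM) were first, followed by Lamp5 Fam19a1 Pax6 (851 CPM). Vip Lect1 Oxtr cells were the lowest at both ages, with 6.42 and 32.8 CPM. No pair of neighbours in the Cck order had quartiles that did not overlap.

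In NGCs Cck leaned towards the Lsp1 subtype. At P15 9 of 36 Dock5+NGCs (median 9.76 CPM) and 20 of 33 Lsp1+NGCs (median 210 CPM) reached 100 CPM. At P30 this was 12 of 76 (median 12.0 CPM) and 9 of 35 (median 11.8 CPM). In patched cells it was 7 of 20 (median 54.7 CPM) and 16 of 27 (median 265 CPM). The ranges of the cells overlapped in each collection. The summed levels were lower in Dock5+NGCs each time, 111 against 352 CPM, 96.9 against 281 CPM and 91.2 against 466 CPM (log2 folds of -1.58, -1.45 and -2.23). A single cell weighed on each later value. At P30 the log2 fold was -0.91 without the richest cell of each subtype, and in patched cells the 1 cell with 15968484 counts held 57.8% of the Lsp1 Cck counts and the log2 fold was -1.52 without it. Unmarked (tdTOM-) Lsp1 cells at P30 had a median of 160 CPM, with 15 of 28 cells at 100 CPM.

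Sst, the somatostatin precursor and the label of an IN class that arises in the MGE, was close to absent from sorted cells, where 7 of 390 P15 cells had a count. Summed CPM was 15.8 in Vip Crispld2 Kcne4 cells, 6.49 in Lsp1 cells and 0 in the other 10 subtypes. In 36 tdTOM+ Dock5+NGCs 0 of 10557163 counts were Sst, which by a floor of 3 counts allows up to 0.284 CPM. In patched cells, by contrast, Sst counts were found in 14 of 20 cells of the Dock5 and 20 of 27 of the Lsp1 subtype, and the sums were 33.9 and 271 CPM. All 14 Dock5+NGCs patched at P15 to P18 had Sst, at 1.54 to 368 CPM with a median of 37.1 CPM, and 0 of the 6 patched at P19 to P25 had any. Among Lsp1+NGCs 18 of 23 younger cells (median 8.02, highest 1474 CPM) and 2 of 4 older cells (highest 4.55 CPM) had a count. The medians of markers of other cells moved with these ages in patched Dock5+NGCs, from 25.5 to 0 CPM for MGE markers (a list without Sst), from 907 to 459 CPM for oligodendrocyte, from 30.7 to 0 CPM for astrocyte and from 16.2 to 0 CPM for glutamatergic markers, whereas red blood cell markers were higher in the older cells (96.9 against 1842 CPM). The part of RNA from other cells in the Sst of patched cells was not tested.

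Vip showed the opposite contrast. Every one of the 390 P15 cells and 580 of 581 P30 cells had a Vip count, the lowest P15 value being 8.50 CPM in a Dock5+NGC. In tdTOM+ NGCs 55.6% (Dock5) and 72.7% (Lsp1) of P15 cells and 64.5% and 62.9% of P30 cells reached 100 CPM. In patched cells any Vip count was found in 3 of 20 Dock5 and 5 of 27 Lsp1 cells, at most 9.69 and 70.5 CPM, and none reached 100 CPM. At P15 the others were also found in most cells regardless of subtype, with counts of Tac2 in 369, Pnoc in 364, Cck in 358, Crh in 334 and Penk in 310 of 390 cells. Sorted cells passed through a shared suspension and patched cells did not. However, the collections also differed in chemistry, sequencing depth, age and cortical layers, with only upper layers among the sorted cells. Whether the low Vip, Crh, Tac2 and Penk of sorted NGCs was their own RNA was not tested, and such levels are not read as expression here.

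**Figure D3:**
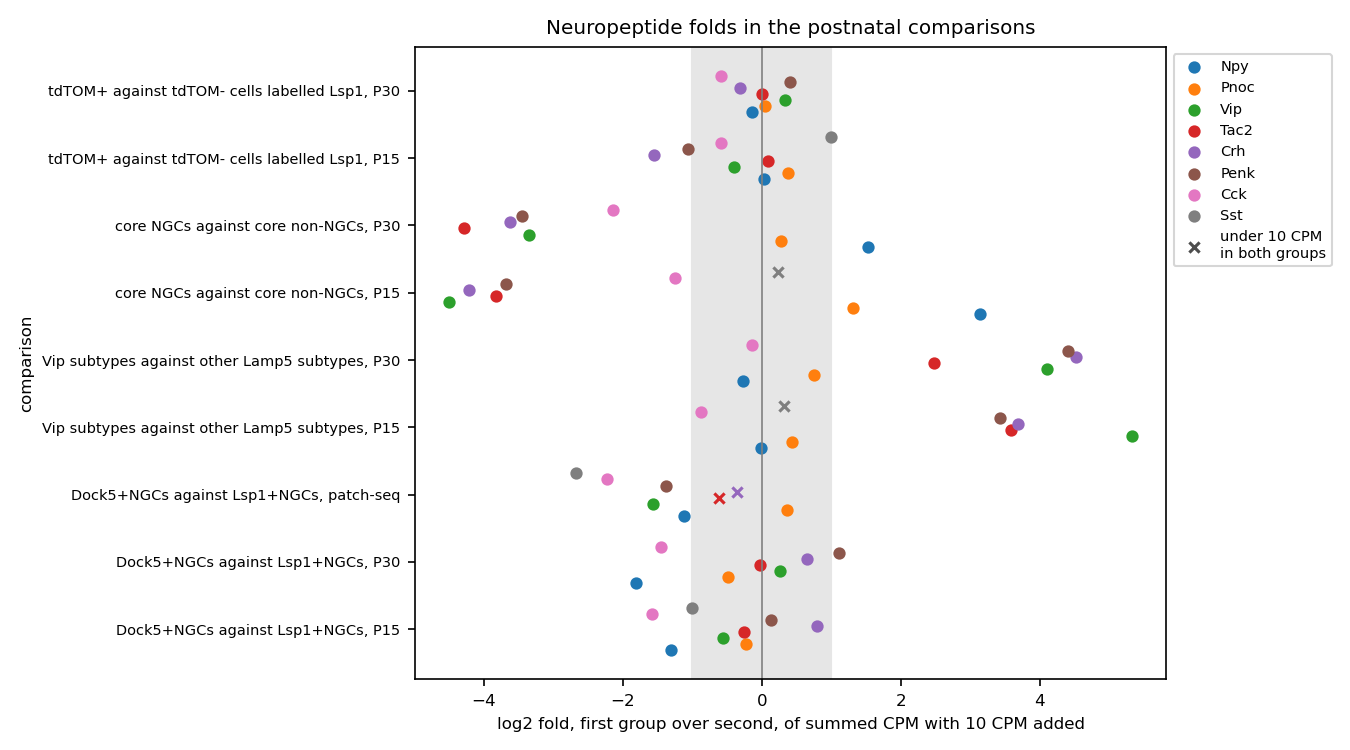
Log2 fold of each neuropeptide gene, computed with 10 CPM added, in the 9 postnatal comparisons; the grey band holds differences under 2-fold and crosses mark genes under 10 CPM in both groups. Npy is positive and Vip, Crh, Tac2 and Penk are negative in core NGCs against core non-NGCs at both ages, and Npy and Cck are negative in Dock5+NGCs against Lsp1+NGCs in all 3 collections.

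Core NGCs (tdTOM+ cells labelled Dock5 or Lsp1) and core non-NGCs (tdTOM- cells given any other subtype) were compared next. Of the 89 core non-NGCs at P15, 63 were labelled Vip, 14 other Lamp5 and 12 Sncg or Serpinf1. Of the 96 at P30 these were 47, 21 and 28. Both groups were drawn by label, so the folds describe the cells of these labels. At P15, in 69 against 89 cells, 7 of the 7 precursors with at least 10 CPM were past 2-fold, whereas 13.8% of all genes tested were. Npy was higher in core NGCs, 7155 CPM (7118 to 7192) against 800 CPM (789 to 811) or 8.95-fold, as was Pnoc, 660 against 259 CPM (log2 fold 1.32). The other 5 were lower in core NGCs. Vip was 271 against 6340 CPM (23.4-fold lower), Crh 47.1 against 1047 CPM (log2 fold -4.21), Tac2 83.4 against 1310 CPM (-3.82), Penk 35.8 against 579 CPM (-3.68) and Cck 226 against 550 CPM (-1.24). When whole sorts were compared, inconclusive cells included, only Vip (-1.09) and Crh (-1.20) were past 2-fold at P15, and Npy was at 0.55.

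At P30, in 111 against 96 cells, 6 of 7 precursors were past 2-fold, whereas 14.3% of all genes tested were. Npy was 4077 against 1410 CPM (log2 fold 1.52) and Pnoc 303 against 249 CPM (0.28, not past 2-fold). Vip was 381 against 3962 CPM (10.4-fold lower), Tac2 33.7 against 844 CPM (-4.29), Crh 38.7 against 590 CPM (-3.62), Penk 32.4 against 454 CPM (-3.45) and Cck 159 against 740 CPM (-2.15). Npy fell under 2-fold between whole sorts (0.43).

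Between the 2 NGC subtypes 3 of 8 precursors were past 2-fold at P15 (19.3% of all genes tested), 3 of 7 at P30 (19.4%) and 5 of the 6 at 10 CPM or more in patched cells (18.3%). Beside Npy and Cck these were Sst at P15, through its 1 Lsp1 cell, and Penk at P30, at 41.9 CPM in Dock5+NGCs and 14.0 CPM in Lsp1+NGCs. In patched cells Penk lay the other way, 16.0 against 57.9 CPM (log2 fold -1.38). Sst was past 2-fold there in its sums (log2 fold -2.68), while the median cell held 15.3 CPM in Dock5+NGCs and 4.51 CPM in Lsp1+NGCs. Vip was past it (-1.56, on 6 and 1156 counts) through the deepest Lsp1 cell, without which the log2 fold was -0.67.

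Cells labelled Vip differed from Lamp5 cells other than NGCs in the 4 precursors Vip, Crh, Tac2 and Penk at both ages (4 of 7, against 15.8% of all genes tested at P15 and 23.2% at P30). In 87 Vip against 30 Lamp5 cells at P15, Crh was 1260 against 88.4 CPM, Tac2 1765 against 138 CPM and Penk 797 against 64.9 CPM. In 62 against 40 cells at P30, Crh was 922 against 30.5 CPM, Tac2 1083 against 185 CPM and Penk 985 against 36.7 CPM. Npy, Cck and Pnoc stayed within 2-fold, Npy with 711 against 717 CPM at P15.

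Pairs of precursors in the same cell were counted at 100 CPM or more. Both sorts were pooled for these counts. The sorted cells thus included 4 tdTOM- Dock5 cells at P15, and 20 (P15) and 28 (P30) tdTOM- Lsp1 cells. Npy with Pnoc was found in 32 of 40 sorted Dock5 cells at P15, 36 of 76 at P30 and 16 of 20 patched ones. In Lsp1 cells this pair was found in 46 of 53, 37 of 63 and 23 of 27. Since nearly all of these cells held Npy, the pair follows the share with Pnoc. Npy with Cck was found in 10 of 40, 12 of 76 and 7 of 20 Dock5 cells and in 33 of 53, 24 of 63 and 16 of 27 Lsp1 cells. In Lsp1 cells at P15, 29 of the 33 cells with Cck also held Pnoc. Npy with Vip was counted in 20 of 40 and 49 of 76 sorted Dock5 cells and in 38 of 53 and 38 of 63 sorted Lsp1 cells, but in no patched cell. Counted at this threshold, Vip and the other low genes included, the median number of precursors per sorted cell was 3 in Dock5 cells at both ages, 4 (P15) and 3 (P30) in Lsp1 cells, and 5 in Vip cells at both ages. In patched cells it was 2 (Dock5) and 3 (Lsp1).

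**Figure D4:**
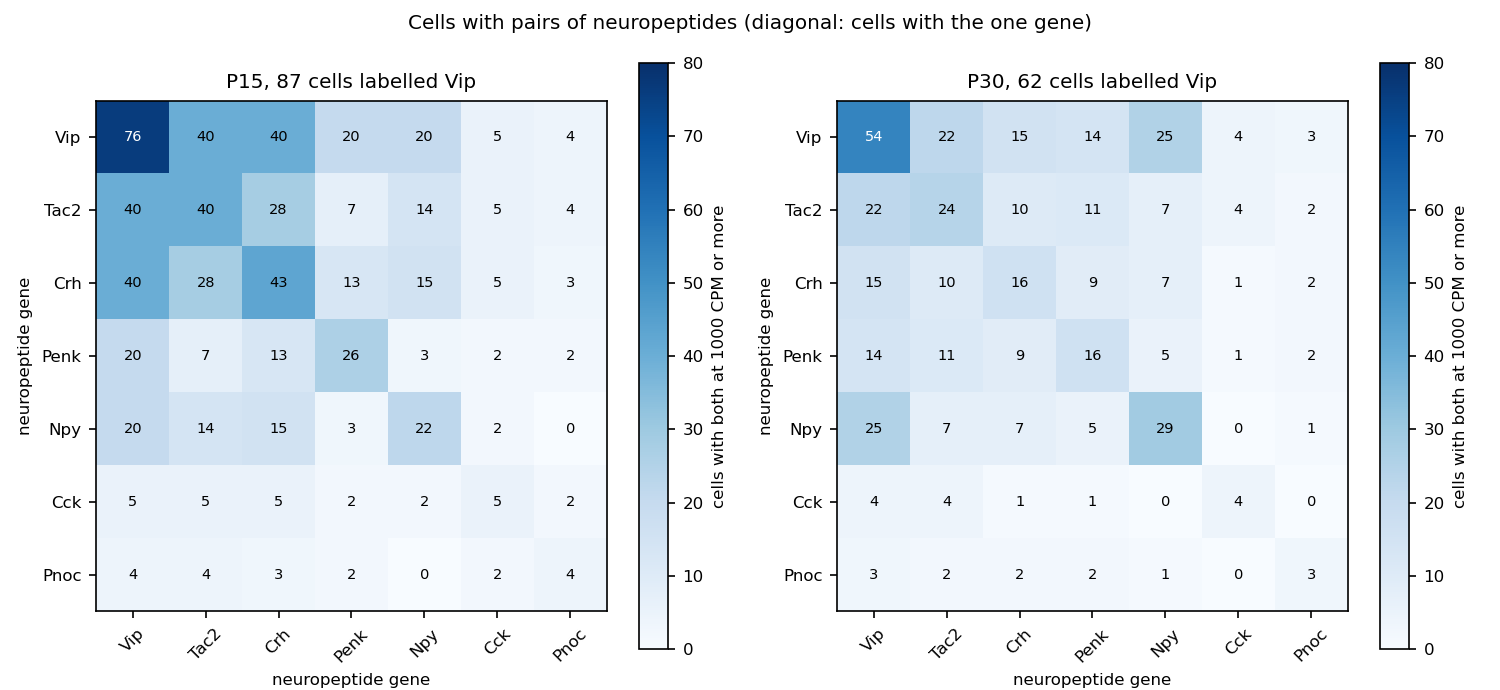
Number of Vip-labelled cells (87 at P15, 62 at P30) in which both neuropeptide genes of a pair reached 1000 CPM, with single genes on the diagonal. At P15 Vip shares 40 cells with Tac2 and 40 with Crh, while Tac2 and Penk share 7.

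In the 87 Vip-labelled cells at P15, Vip was paired with Tac2 in 59, with Crh in 56 and with Penk in 55 cells. Crh and Tac2 were found together in 47 cells, and 78.3% of the cells with Crh held Tac2 against 69.0% of all Vip-labelled cells. Of the 36 cells with Cck, 32 (88.9%) held Crh and 32 held Tac2, and 84.4% of those with Pnoc held Tac2. Tac2 and Penk met in 37 cells, 61.7% of the cells with Tac2 against 66.7% of all cells. At P30 the 62 cells gave 70.0% of Crh cells with Tac2 and 84.0% of Cck cells with Tac2 against 59.7% of all, and 21 cells with Tac2 and Penk. At 1000 CPM Crh with Tac2 remained in 28 of 87 cells at P15 and Tac2 with Penk in 7, out of 43 cells with Crh, 40 with Tac2 and 26 with Penk. In the 14 P15 and 30 P30 cells labelled Sncg or Serpinf1, Vip and Cck were found together in 12 and 20.

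The genes most like a member over subtypes were sought among 7298 genes, by the smaller Pearson's r of the 12 P15 and 16 P30 subtypes, for the 4 members with the widest range. The values are descriptions over subtypes that share their libraries. Vip was followed by Synpr, a synaptic vesicle protein (r of 0.94 and 0.86), Tac2 (0.90 and 0.78) and Cbln2 (0.90 and 0.77). Tac2 was followed by Cbln2 (0.87 and 0.81), Vip and Synpr (0.83 and 0.76). Crh was followed by Serpine2 (0.73 and 0.77), Tac2 (0.72 and 0.72) and Cenpa (0.78 and 0.67). Penk had neither Vip nor Tac2 among its first 3, which were Igfbp4 (0.79 and 0.81), Shisa6 (0.65 and 0.72) and Slc24a2 (0.71 and 0.65).

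Other precursors and the genes that process or release peptides were counted from 2 lists. Of 25 other precursors, 6 reached 10 CPM between core NGCs and core non-NGCs at P15, of which 0 were higher and 2 lower past 2-fold (median log2 fold -0.18, against -0.03 over all genes tested), and 5 did so at P30, of which 2 were higher and 1 lower (median -0.57 against 0.03). All genes tested were past 2-fold in 13.8% and 14.3%. Chga, chromogranin A of dense core vesicles, was lower in core NGCs at both ages, 80.7 against 222 CPM and 23.9 against 89.6 CPM. Of 18 processing and release genes, 0 of 16 were higher and 4 lower at P15, and 0 of 13 were higher and 3 lower at P30 (medians -0.08 and -0.02). Pcsk2, a convertase that cuts precursors, was 109 against 244 CPM at P15 and 61.9 against 179 CPM at P30. Cadps2, which primes dense core vesicles for release, was 15.7 against 417 CPM and 43.3 against 596 CPM. Between the NGC subtypes 1 of 7, 1 of 5 and 4 of 13 other precursors and 1 of 14, 0 of 12 and 2 of 12 processing genes were past 2-fold at P15, at P30 and in patched cells, beside 19.3%, 19.4% and 18.3% of all genes tested.

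At E14.5 only Npy, Sst, Pnoc and Cck reached 10 CPM in a compared group. Droplet cells were divided into post-mitotic GABAergic-like cells (1558 in the POA, 2329 in the CGE) and progenitor-like cells (539 and 1171) by the larger of 2 marker sums, at 3200 UMIs or more. Shares in progenitor-like cells are given beside those in post-mitotic cells. Whether the counts in progenitor-like cells were their own RNA was not tested. With all UMIs, Npy was counted in 16.5% of post-mitotic and 8.91% of progenitor-like POA cells, at median depths of 7571 and 7595 UMIs, and in 32.0% and 15.2% of CGE cells, at 5776 and 7787 UMIs. Thinned to 3200 UMIs per cell, Npy was in 9.31% (7.91 to 10.9) of post-mitotic POA cells against 4.27% of progenitor-like cells, and in 22.6% (20.9 to 24.3) against 7.09% in the CGE. Sst was in 4.94% against 1.48% in the POA and 18.9% against 7.77% in the CGE. Pnoc was in 8.92% against 2.60% in the POA but 3.52% against 0.427% in the CGE. Cck was in 3.53% against 1.11% in the POA and 2.15% against 0.854% in the CGE, where Penk was in 1.76% against 0.427%.

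**Figure D5:**
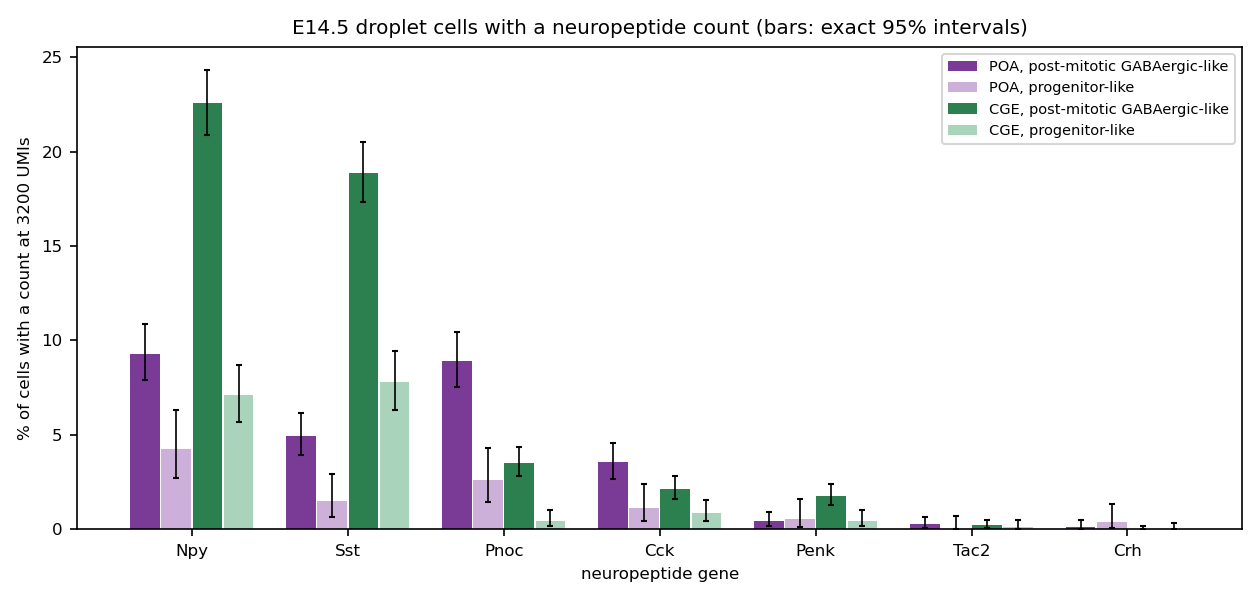
Percentage of E14.5 droplet cells with a count of each neuropeptide gene after thinning to 3200 UMIs, in post-mitotic GABAergic-like and progenitor-like cells of the POA and the CGE, with exact 95% binomial intervals. Npy and Sst are found in more CGE cells (22.6% and 18.9%) than POA cells (9.31% and 4.94%), and Pnoc in more POA cells (8.92% against 3.52%).

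Summed over post-mitotic cells, Npy was 67.1 CPM in the POA and 201 CPM in the CGE, and Sst 52.5 and 396 CPM. These 2 of the 4 members with 10 CPM were past 2-fold, where 3.52% of all genes tested were. Pnoc was 35.9 against 14.6 CPM (log2 fold 0.90) and Cck 21.1 against 12.1 CPM (0.49). With all UMIs, Crh was in 0 of 2329 CGE cells. By a floor of 3 counts this allows up to 0.129% of cells with a Crh UMI at this depth. Also with all UMIs, Tac2 was in 6 POA and 9 CGE cells and Vip in 2 of 1558 POA cells. The POA and CGE libraries shared 12 cell barcodes. Npy and Sst met in 163 CGE cells (7.00% of 2329), so that 31.0% of Npy cells held Sst against 18.9% of all. In the POA they met in 14 of 1558 cells, 9.66% of Npy cells against 4.94% of all.

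The Npy cells of both regions carried Lhx6, a transcription factor of MGE-derived INs, more often than the other post-mitotic cells, at 3200 UMIs per cell. In the CGE 43.0% of 526 Npy cells held Lhx6 against 21.0% of the others, and 40.9% held Sox6 against 26.3%, while Nr2f2, a factor of the CGE, was in 49.0% against 54.8%. In the POA 29.7% of 145 Npy cells held Lhx6 against 13.7%, and Hmx2 was in 13.8% against 12.1%. Sox6 (23.4% against 12.2%) and Satb1 (19.3% against 12.4%) were also higher in the Npy cells of the POA. Nkx2-1 was nearly level there (59.3% against 58.7%), and Nr2f2 was in 34.5% against 40.1%. The 139 Pnoc cells of the POA held Lhx6 in 15.1% against 15.2%. The CGE Sst cells, 440 in number, held Lhx6 in 30.9% against 24.8% and Nr2f2 in 65.2% against 50.8%. Both marker lists were mixed in these cells. Among MGE markers Sox6 (34.1% against 28.6%) and Satb1 (27.3% against 19.2%) were higher, Nkx2-1 was lower (17.5% against 24.9%) and Pvalb was in 0% against 0.106%. Among CGE markers Npas1 was higher (3.86% against 2.65%), and Prox1 (15.0% against 20.4%) and Sp8 (11.8% against 14.1%) were lower.

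Among the 418 deeply sequenced tdTOM+/GFP+ POA cells, Npy was counted in 38, at 100 CPM or more in 15. Pnoc was counted in 79 (33 at 100 CPM) and Sst in 28 (9 at 100 CPM), whereas Cck was counted in 15, Tac2 in 4, Penk in 2, and Vip and Crh in 1 each. The 15 Npy cells held Lhx6 in 66.7% against 9.68% of the other cells and Hmx2 in 33.3% against 40.2%. Of 352 FlashTag+ cells, 5 had Npy, 8 Pnoc, 8 Sst and 2 Penk. Summed, Npy was 43.1 against 4.79 CPM and Pnoc 27.4 against 2.99 CPM, and these 2 of the 3 members with 10 CPM were past 2-fold, where 22.8% of all genes tested were. Sst was 18.8 against 8.33 CPM, and 99.2% of its FlashTag+ counts came from 1 cell. Without the richest cell of each group its log2 fold was 1.31 instead of 0.65, past 2-fold. Of the other precursors 4 of 6 were higher past 2-fold, as were 6 of 12 processing and release genes. The 2 groups were sorted on different labels and differ in time since division and genotype, and the sources used here disagree on the strain of the FlashTag+ embryos. These cannot be told apart.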

How the data were processed

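Single-cell counts as deposited by the authors were used. The authors aligned C1 and patch-seq reads to GRCm38 with STAR, removed duplicates with UMI-tools and counted exonic reads per gene by strand. Droplet reads were processed with Cell Ranger on mm10. The tables hold only cells, and droplet clusters, that the authors kept, and how gene rows were chosen is not given in the sources used here. Neither the authors nor the labels named animals per cell, so counts were summed per sort, age and subtype, divided by all counts of the group and compared as log2 of CPM with 10 CPM added. No test was run. Droplet cells under 3200 UMIs were left out, and no doublet caller was run. Shares of droplet cells were computed after thinning each cell to 3200 UMIs, except where the text says that all UMIs were used. Python 3.11.15, numpy 2.4.6 and scipy 1.17.1 were used, and the steps were tested on simulated data with known folds.

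All 8 members are named in every table with a row. Of the 25 other precursors and 18 processing genes, a gene is named where its log2 fold between core groups is 1 or more in size and of one sign at both ages, with 50 CPM or more in the higher group each time. The first 3 most similar genes are named for the 4 members of widest range. Members and lists were chosen with earlier results of these data known. The number of columns of per-sample values left unused was 0. Alternatives were other pseudocounts, means over cells, thinning, deeper cells, plate rows, leaving out extreme cells, whole sorts and other thresholds of presence.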

Additional observations from a re-analysis of the deposited data

Results flagged for a closer look

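Penk differed between Dock5+NGCs and Lsp1+NGCs in a way that changed with the collection. The log2 fold was 0.13 at P15, 1.11 at P30 and -1.38 in patched cells. The difference between collections was not tested, since each holds 1 sample per subtype. The levels behind it are low. Penk reached 100 CPM in 4 of 36 and 4 of 33 sorted NGCs at P15 in 7 of 76 and 2 of 35 at P30, and in 1 of 20 and 3 of 27 patched cells. In patched cells the median of Penk was 0 CPM in both subtypes, and 1 Lsp1 cell held 54.2% of the Lsp1 counts. Summed markers of oligodendrocytes, glutamatergic cells and MGE INs were higher in patched Lsp1+NGCs. Their medians over cells patched at P14 to P18 were lower in Lsp1+NGCs than in Dock5+NGCs (805 against 907, 8.08 against 16.2 and 9.64 against 25.5 CPM). At P19 to P25, in 4 and 6 cells, these medians were 308 against 459, 5.91 against 0 and 6.07 against 0 CPM. The part of RNA of other cells in the Penk counts was not tested.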

How the results depend on the processing

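No paired analysis was possible because the labels give 1 sample per group and name no animal. Counts of members past 2-fold were within 1.5 times the main count in 89 of 107 alternative settings. The cause of the exceptions was not tested. Core NGCs against core non-NGCs at P15 went from 7 to 2 between whole sorts. Dock5+NGCs against Lsp1+NGCs went from 3 to 1 at P30 and from 5 to 3 in patched cells with 100 CPM added, to 1 and 2 with the mean of log2 values, and patched cells to 3 with mean CPM. The Lsp1 sorts at P15 went from 3 to 0 with 100 CPM added or mean log2 values, to 1 without the richest cells and to 1 in plate rows 21 to 40, where Penk turned from a log2 fold of -1.06 to 0.11. At P30 they went from 0 to 2 when thinned, to 1 with mean log2 values or without the richest cells, and to 3 in plate rows 1 to 20. At E14.5, tdTOM+/GFP+ against FlashTag+ cells went from 2 to 0, and POA against CGE from 2 to 1, with 100 CPM added or mean log2 values. Of 39 log2 folds past 2-fold, 52 of 387 settings were under it, and those of Vip-labelled against other Lamp5 cells stayed at 2.05 or more in size.

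Pairs present in 20% of cells depended on the threshold. With any count, Dock5 cells went from 7 to 21 at P15 and from 3 to 21 at P30, Lsp1 cells from 9 and 6 to 21, and patched Dock5 and Lsp1 cells from 3 and 4 to 10. After thinning the counts were 21 and 21 (Dock5), 21 and 19 (Lsp1), and 9 and 10 (patched). At 1000 CPM they were 0 in sorted Dock5 and Lsp1 cells, and 1 and 0 in patched cells. In Vip cells they were 5 (P15) and 4 (P30), where 100 CPM gave 21 at both ages. Depth limits droplets most, since 1 UMI there weighs over 100 CPM in a median cell.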
